A study of Homo sapiens with 12 samples.

Results

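Heat shock chaperone genes were followed in nascent RNA of U2OS cells after transfection of an siRNA aimed at INTS11. The set comprised 10 of the 60583 genes in the count tables, taken by symbol: HSPA1A, HSPA1B, HSPA8 and HSPH1 (HSP70 family), HSP90AA1 (HSP90), DNAJB1 (HSP40), HSPD1 and HSPE1 (the mitochondrial chaperonin pair HSP60 and HSP10), HSPB1 (small HSP) and BAG3 (a cochaperone). Molecular chaperones bind unfolded proteins and help them fold, refold or be cleared. Their genes are the classic targets of heat shock factor 1 (HSF1), which is held inactive in unstressed cells and, on heat or proteotoxic stress, trimerises and binds heat shock elements, arrays of inverted nGAAn units upstream of the start site. Many of these genes carry RNA polymerase II paused just downstream of the start, and HSF1 acts largely by promoting release of that paused polymerase. Integrator, whose endonuclease subunit is INTS11, cuts nascent RNA at such early polymerases and ends their transcription, and the study asked how Integrator bears on polymerase processivity.

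The data were TT-seq counts, in which newly made RNA carrying 4-thiouridine is fragmented, biotinylated, captured and sequenced, from 12 libraries in 4 groups of 3. U2OS, a human osteosarcoma line, received either a non-targeting siRNA (siCtrl) or one aimed at INTS11 (siINTS11). U2OS-AsiSI, the line carrying the restriction nuclease AsiSI joined to an oestrogen-receptor domain (AsiSI-ER), received the same siRNAs. All groups were collected 48 hours after transfection. Both U2OS-AsiSI groups, siCtrl included, had OHT (4-hydroxytamoxifen, which drives the nuclease into the nucleus) for 1 hour, and the labels name no OHT for either U2OS group, so line, nuclease and OHT cannot be told apart. The labels name no heat shock for any group. Labelled yeast RNA was added to each sample before capture, but its reads were not used here, so values are relative and not absolute. The labels do not say whether replicates were separate cultures, so p-values measure the spread between these libraries only. In such bulk libraries, fewer cells of a type and less RNA per cell cannot be told apart.

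Promoter sequences are shown because the heat shock element is the sequence through which HSF1 recognises its targets. RefSeq (GRCh38.p14) windows of 300 bases, 250 before and 50 from each annotated start, matched all 10 genes in 14 windows. Each was searched on both strands for the paired elements GAANNTTC and TTCNNGAA, each its own reverse complement, with overlapping matches counted, and for the triple forms GAANNTTCNNGAA and TTCNNGAANNTTC. A pair was present for 7 of the 10 genes (8 of 14 windows, 57.1%, against 13.5% of 35116 windows of all genes). A triple was present for 3 genes, HSPA8, HSP90AA1 and HSPD1 (3 of 14 windows, 21.4%, against 0.49% of all). The stretches below run 5′ to 3′ on the gene's strand, with the matched bases in capitals. Those of HSPA1A, HSPA1B, DNAJB1 and HSPB1 lie in no GENCODE 29 exon, and those of HSPA8, HSP90AA1 and HSPD1 lie inside an annotated exon and are cut to the match itself.
HSPA1A, chr6:31815426-31815455, plus strand: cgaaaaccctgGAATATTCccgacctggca
HSPA1B, chr6:31827622-31827651, plus strand: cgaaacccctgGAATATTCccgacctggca
HSPA8, chr11:123062179-123062191, minus strand: TTCTGGAAGGTTC
HSP90AA1, chr14:102087105-102087132, minus strand: TTCCGGAAGGTTCgggaggcTTCTGGAA
DNAJB1, chr19:14518426-14518485, minus strand: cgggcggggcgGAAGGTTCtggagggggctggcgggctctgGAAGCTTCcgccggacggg
HSPD1, chr2:197500068-197500085, minus strand: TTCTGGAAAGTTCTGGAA
HSPB1, chr7:76302480-76302509, plus strand: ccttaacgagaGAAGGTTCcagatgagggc
HSPA1A and HSPA1B, the stress-inducible HSP70 copies, showed the same paired element in near-identical surroundings. The windows of HSPH1, HSPE1 and BAG3 held none of these letters, which says nothing of HSF1 elsewhere at those genes. A match is a description of the sequence and no evidence of binding here.

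Libraries held between 20704611 and 38065726 counted reads. Depth moved with the siRNA in U2OS-AsiSI, where siCtrl libraries averaged 30885042 reads and siINTS11 libraries 24486291, and less so in U2OS (33062796 and 30628221). INTS11, the targeted gene, changed by -0.42 on the log2 scale in U2OS (SE 0.09, edgeR adjusted p 6.08e-05) and by -0.13 in U2OS-AsiSI (SE 0.08, adjusted p 0.172). These reads count newly made RNA over the gene's span and do not measure the level of INTS11 mRNA or protein. How far INTS11 was depleted is therefore not known here, and siINTS11 below means the libraries labelled siINTS11. Of 7 mesenchymal and osteoblast markers, COL1A2 and TWIST1 were near 0 (at most 13 and 9 reads), and the summed level ran from 895.7 to 944.1 CPM (counts relative to library size after TMM scaling, which sets libraries to the same level for a typical gene) in U2OS siCtrl and from 649.9 to 696.2 in U2OS siINTS11. In U2OS-AsiSI it ran from 770.4 to 783 under siCtrl and from 582.6 to 640.3 under siINTS11. Members went both ways: of 5 tested, 2 rose and 2 fell in U2OS-AsiSI and 1 rose and 3 fell in U2OS, with RUNX2, the largest part of the siCtrl sum, falling (-1.07 and -0.84) and ALPL rising (1.31 and 1.47). The 8 markers of other cell types summed to between 11.4 and 19.1 CPM in every library, higher under siINTS11 in both lines. CD3E, ALB and MLANA had no more than 3 reads, and EPCAM and CDH1 were the largest parts (4.46 and 6.23 CPM in U2OS siCtrl). Of 4 tested, 2 rose in U2OS-AsiSI and 4 in U2OS, and none fell. GFAP rose by 2.27 in U2OS-AsiSI and 2.28 in U2OS, and PECAM1 by 1.89 and 1.65, both from few reads. The part of depth and of these shifts in the chaperone results was not tested.

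The 10 genes fell into 7 with 418 to 3477 reads per library and 3 with almost none. HSPA1B (chr6:31827738-31830254, plus strand) had 0 reads in all 12 libraries. Taken alone, a library with a count of 0 still allows an expected count of up to 3 reads. HSPA1A (chr6:31815543-31817946, plus strand) had between 0 and 3 reads per library and 21 in all. HSPE1 (chr2:197500140-197503449, plus strand), the HSP10 lid of the mitochondrial chaperonin, had between 3 and 15 reads per library and 96 in all. These counts are not a measure of how much the 3 genes were transcribed. Of the 50-base words in the HSPA1A transcript, 72.6% also occur in HSPA1B, and of those in HSPA1B 71.4% also occur in HSPA1A. A read from either copy can thus often not be placed. AL671762.1, also with 0 reads, lies over 1421 of the 2517 bp of HSPA1B on its strand. HSPE1 shares 3037 of its 3310 bases, on the same strand, with the readthrough gene HSPE1-MOB4, and 52.9% of its 50-base words with other genes. Words were matched on either strand, and HSPD1, which runs opposite across HSPE1, holds 25.7%. Words shared with a gene at the same place need not give a read several matches. How the authors' counting treated reads with several matches or in overlapping genes is not given in the sources used here.

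HSPE1-MOB4, whose span covers most of HSPE1, held more reads. Its reads in U2OS numbered 138, 189 and 130 with siCtrl and 289, 272 and 264 with siINTS11, or 5.03, 5.34 and 4.59 CPM against 8.73, 8.90 and 8.43, and the groups did not overlap. HSPE1-MOB4 rose by 0.77 on the log2 scale (SE 0.09, edgeR adjusted p 2.17e-09). In U2OS-AsiSI the change was 0.20 (SE 0.09, adjusted p 0.0593, between 0.000804 and 0.286 over 14 alternative analyses). It passed the threshold in 6 of the 14: without siCtrl replicate 1, without siINTS11 replicate 3, with library totals alone, among genes averaging at least 50 reads, with the replicate block and with scaling from genes under 0.1 reads per base. The lines differed in this response (-0.60, SE 0.13, edgeR adjusted p 0.0071). MOB4 (chr2:197515571-197553699, plus strand) also lies over part of HSPE1-MOB4 on the same strand. How reads in the stretches shared with HSPE1 or MOB4 were counted is not given. Which part of the readthrough unit the count covers is thus not known, and it cannot be assigned to HSPE1.

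The levels of the other 7 genes were compared per length of gene span, introns included, as CPM per kilobase. In U2OS siCtrl the order was HSPB1 (12.3 ± 1.42; SD, n = 3, here and below), HSPA8 (9.80 ± 0.823), BAG3 (2.95 ± 0.0959), HSPD1 (2.84 ± 0.147), DNAJB1 (2.17 ± 0.115), HSPH1 (1.95 ± 0.0667) and HSP90AA1 (0.739 ± 0.0397). Only BAG3 and HSPD1 overlapped as neighbours in that order. In U2OS-AsiSI siCtrl, HSPB1 (11.6 ± 0.681) and HSPA8 (10.97 ± 0.655) overlapped, and HSPD1 (3.37 ± 0.145) lay above BAG3 (3.01 ± 0.0126). Under siINTS11, HSPA8 stood first in both lines (10.7 ± 0.231 in U2OS and 13.4 ± 1.253 in U2OS-AsiSI) and HSPB1 was next (9.50 ± 0.247 and 10.4 ± 0.914), with no overlap. HSPA8 encodes the constitutive HSC70, and HSPB1 encodes HSP27, a small chaperone that holds unfolded proteins without ATP. HSP90AA1 was lowest per kilobase in all 4 groups. Its tabulated span is 58962 bp and holds a long upstream alternative start. From the RefSeq start nearer the coding part to the gene's end is 6307 bp, over which its reads would average 0.245 per base if all lay there, against 0.0262 over the whole span. From the RefSeq starts nearer the gene's end, DNAJB1 would average 0.288 or 0.330 reads per base and HSPD1 0.221 or 0.228. Over their whole spans these 2 genes averaged 0.0697 and 0.100. HSPA8 would go from 0.329 to 0.406. The order above thus depends on the span used.

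The first question was how the chaperone genes responded to siINTS11. In U2OS-AsiSI, 6 of the 7 tested genes rose and HSPB1 fell, against 68% of all 20441 tested genes called in either direction, 35.4% higher and 32.6% lower (edgeR, adjusted p under 0.05). In U2OS, HSPH1, HSP90AA1 and HSPD1 rose, HSPB1 fell and HSPA8, DNAJB1 and BAG3 did not pass, against 66.9% called of 20687 genes, 34.5% higher and 32.4% lower. The share called among the chaperones thus stands near that of all genes in U2OS, and with so many genes called a single call is ordinary here. Fold changes were small: the median over the 7 genes was 0.24 on the log2 scale in U2OS-AsiSI and 0.10 in U2OS, against 0.03 and 0.02 over all tested genes. Both siRNA comparisons are relative to a typical gene. With library totals alone the median of all genes moved to 0.22 in each line, and the share of called genes that were higher moved from 52.1% to 72.4% in U2OS-AsiSI and from 51.6% to 74.3% in U2OS. On that scale 6 chaperone genes were called higher in both lines, and HSPB1 stood at 0.02 (adjusted p 0.80) in U2OS-AsiSI and -0.20 in U2OS.

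**Figure D1:**
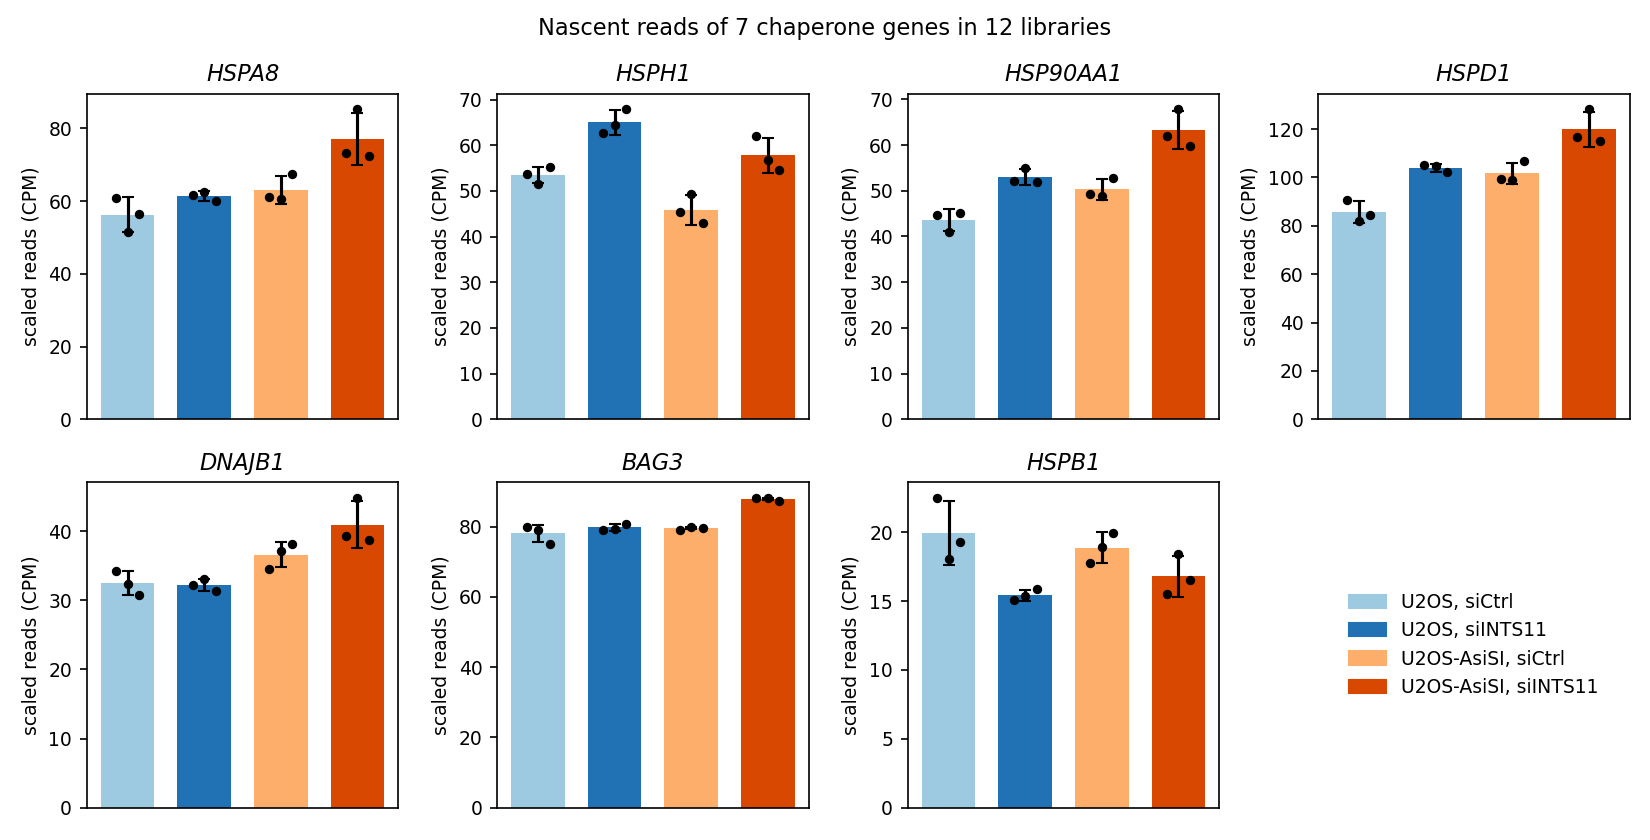
Scaled nascent reads (CPM, y axis from 0) of the 7 counted chaperone genes in each of 4 groups. Bars are means of 3 libraries, error bars the SD and points the libraries. HSPH1, HSP90AA1 and HSPD1 lie higher under siINTS11 in both lines with no overlap, and HSPB1 lies lower in U2OS.

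In the HSP70 group, HSPA8 (chr11:123057489-123063230, minus strand) had 1799, 1936 and 1843 reads under siCtrl in U2OS-AsiSI and 2098, 1938 and 2117 under siINTS11. These were 0.313 to 0.337 reads per base against 0.338 to 0.369, and 61.0, 60.7 and 67.4 CPM against 73.3, 85.3 and 72.5. The groups were apart in reads and in CPM, the highest scaled value being siINTS11 replicate 2, the shallowest library. HSPA8 rose by 0.29 (SE 0.06, edgeR adjusted p 3.36e-05) and kept its call under all 14 alternatives run. In U2OS it had 1672, 1820 and 1601 reads against 2041, 1913 and 1878, or 60.9, 51.5 and 56.5 CPM against 61.7, 62.6 and 60.0. There the raw counts were apart but the scaled values overlapped, through siCtrl replicate 1, and the change of 0.10 (SE 0.05, adjusted p 0.0652) did not pass. Without that library the change was 0.17 (edgeR adjusted p 0.000834, and between 6.57e-07 and 0.42 over the 14 alternatives). SNORD14C, SNORD14D and SNORD14E lie inside HSPA8 on its strand and had 0 reads.

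HSPH1 (chr13:31134973-31162388, minus strand) encodes HSP110, the exchange factor that resets HSP70 for another round. U2OS-AsiSI siCtrl libraries gave 1340, 1578 and 1174 reads and siINTS11 libraries 1777, 1288 and 1593, which overlapped, while the scaled values of 45.5, 49.4 and 42.9 CPM lay below those of 62.1, 56.7 and 54.6. Reads per base ran from 0.0428 to 0.0576 and from 0.0470 to 0.0648. HSPH1 rose by 0.33 (SE 0.06, edgeR adjusted p 4.45e-06). U2OS siCtrl libraries gave 1473, 1826 and 1567 reads and siINTS11 libraries 2076, 1969 and 2128, with scaled values of 53.7, 51.6 and 55.3 against 62.7, 64.4 and 68.0 CPM. Every siINTS11 library lay above every siCtrl library on both scales, and HSPH1 rose by 0.25 (SE 0.04, edgeR adjusted p 3.59e-06). None of its 50-base words occurs in another gene's transcripts, and no tabulated gene overlaps it.

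HSP90AA1 (chr14:102080738-102139699, minus strand) encodes the inducible cytosolic HSP90, which matures kinases and steroid receptors. It had 1450, 1558 and 1446 reads in U2OS-AsiSI siCtrl and 1776, 1542 and 1749 under siINTS11, or 49.2, 48.8 and 52.8 CPM against 62.0, 67.9 and 59.9. It rose by 0.33 (SE 0.05, edgeR adjusted p 1.57e-06), with scaled values apart and counts overlapping only through siINTS11 replicate 2. In U2OS it went from 1228, 1446 and 1279 reads to 1727, 1682 and 1627, and from 44.7, 40.9 and 45.1 CPM to 52.2, 55.0 and 52.0. Groups were apart on both scales, and the rise was 0.26 (SE 0.05, edgeR adjusted p 7.44e-06). Reads per base stayed between 0.0208 and 0.0301 over the 12 libraries. The gene shares 21.4% of its 50-base words with other genes, 12.6% with the pseudogene HSP90AA2P, so some of its reads could be split among copies.

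DNAJB1 (chr19:14514769-14529770, minus strand), the HSP40 that hands clients to HSP70 and stimulates its ATPase, passed the test in 1 line. In U2OS-AsiSI it had 1018, 1186 and 1043 reads under siCtrl and 1126, 1019 and 1129 under siINTS11, or 34.5, 37.2 and 38.1 CPM against 39.3, 44.9 and 38.7. The scaled groups were apart by less than 1 CPM, and the rise of 0.16 (SE 0.06, edgeR adjusted p 0.0138) was lost without siCtrl replicate 1 (0.13, adjusted p 0.0634), without siINTS11 replicate 2 (0.10, adjusted p 0.158) and with DESeq2 (0.14, adjusted p 0.0712), over a range of 8.64e-06 to 0.158. In U2OS the reads were 940, 1146 and 873 against 1065, 1013 and 982, and 34.2, 32.4 and 30.8 CPM against 32.2, 33.1 and 31.4. These overlapped, with a change of -0.04 (SE 0.05, adjusted p 0.51) that was 0.00 without siCtrl replicate 1 and 0.16 with library totals alone. TECR lies on the opposite strand across 12686 of the 15002 bp of DNAJB1, and the counting is not stated to use strand.

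HSPD1 (chr2:197486584-197516737, minus strand) encodes HSP60, the barrel of the mitochondrial chaperonin. It had 2932, 3156 and 2921 reads in U2OS-AsiSI siCtrl and 3336, 2914 and 3356 under siINTS11, or 99.5, 98.9 and 107 CPM against 117, 128 and 115. Counts overlapped and scaled values did not, and the rise was 0.24 (SE 0.05, edgeR adjusted p 7.25e-05). In U2OS it went from 2487, 2902 and 2391 reads to 3477, 3202 and 3198, and from 90.6, 82.0 and 84.3 CPM to 105, 105 and 102. Both scales were apart, with a rise of 0.25 (SE 0.04, edgeR adjusted p 1.18e-06). Reads per base ran from 0.0793 to 0.115. Of its 50-base words, 25% occur in other genes, genes at the same place included, and 16.8% in the pseudogene HSPD1P1. The span of HSPD1 runs opposite HSPE1, HSPE1-MOB4 and the end of MOB4.

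HSPB1 (chr7:76302673-76304295, plus strand), at 1623 bp the shortest of the 10, moved the other way. In U2OS it had 618, 639 and 546 reads under siCtrl and 498, 469 and 496 under siINTS11, or 22.5, 18.1 and 19.3 CPM against 15.05, 15.3 and 15.8. All siINTS11 libraries lay below all siCtrl libraries on both scales, and HSPB1 fell by 0.40 (log2 fold change -0.40, SE 0.07, edgeR adjusted p 5.66e-06). In U2OS-AsiSI the reads were 523, 604 and 546 against 443, 418 and 483, which were apart, but 17.7, 18.9 and 19.95 CPM against 15.5, 18.4 and 16.5 overlapped. The change of -0.17 (SE 0.07, edgeR adjusted p 0.0355) passed the threshold by little. It was lost without siCtrl replicate 2 (-0.17, adjusted p 0.0693) or 3 (-0.13, adjusted p 0.123) and without siINTS11 replicate 1 (-0.11, adjusted p 0.191) or 3 (-0.16, adjusted p 0.104), and over 14 alternatives the adjusted p ran from 0.00654 to 0.80. In all, the call was lost with the same sign in 8 of the 14 and the sign changed in 1, library totals alone. The fall in U2OS kept its call under all 14 (log2 fold changes from -0.46 to -0.20).

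BAG3 (chr10:119651370-119677819, plus strand) encodes an HSP70 cochaperone that sends clients to selective autophagy. Its scaled values were 79.1, 79.8 and 79.6 CPM in U2OS-AsiSI siCtrl and 88.1, 88.1 and 87.4 under siINTS11, with the smallest SD of the 7 genes in each of those groups (0.332 and 0.403). The reads were 2332, 2546 and 2178 against 2521, 2001 and 2552 and overlapped. BAG3 rose by 0.15 (SE 0.04, edgeR adjusted p 0.00409) there and kept its call under the 14 alternatives. In U2OS its levels of 79.9, 79.0 and 75.1 CPM under siCtrl and 79.1, 79.2 and 80.9 under siINTS11 overlapped, from 2193, 2796 and 2130 reads against 2618, 2422 and 2532. The change was 0.00 (SE 0.04, adjusted p 0.975) and was called higher, at 0.20, with library totals alone.

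**Figure D2:**
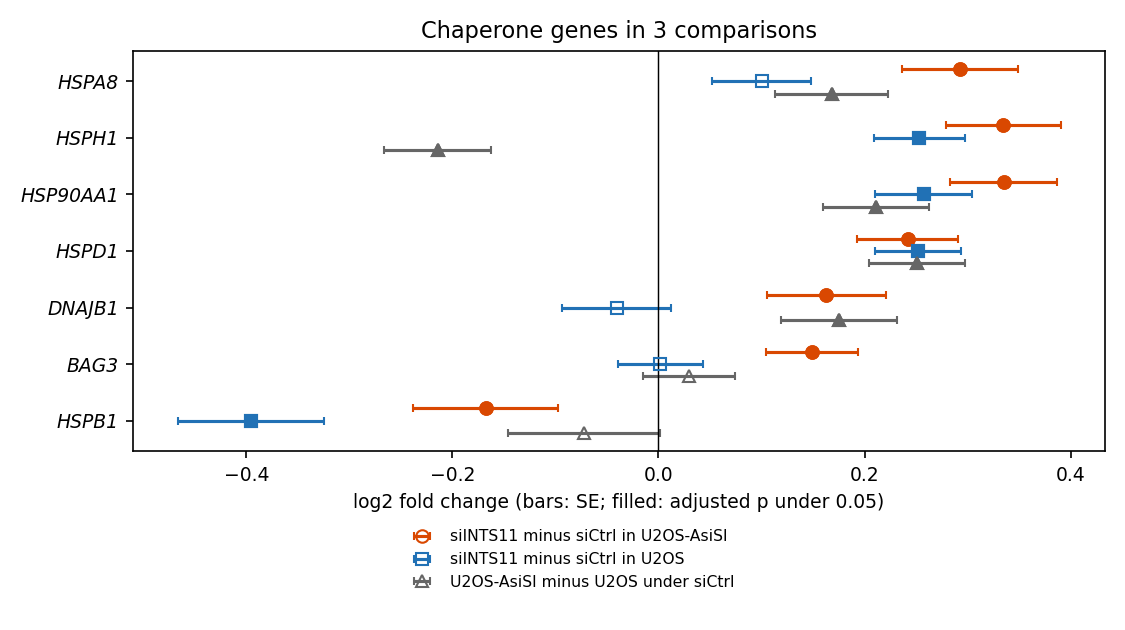
Log2 fold changes (x axis) of the 7 counted chaperone genes in 3 comparisons, with SE bars and filled symbols where the adjusted p was under 0.05. HSPH1, HSP90AA1 and HSPD1 are filled and above 0 for siINTS11 in both lines, and HSPB1 lies below 0 in both.

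As a sum, the 10 genes held 0.0380 ± 0.00156% of all counted reads in U2OS-AsiSI siCtrl and 0.0509 ± 0.00248% under siINTS11, a difference of 0.0129 percentage points. In U2OS the shares were 0.0340 ± 0.00166% and 0.0425 ± 0.000668%, a difference of 0.00853. The 3 siINTS11 libraries lay above the 3 siCtrl libraries in each line (exact two-sided permutation test, p = 0.1, the smallest that 3 against 3 allows). A share of all counts uses library totals and no composition scaling, and HSPD1 and BAG3, with the most reads, weigh most in it. With library totals alone the median of all tested genes was also above 0, at 0.22 on the log2 scale in each line.

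Whether the lines differed in their response was tested as the interaction of siRNA and line over the 12 libraries. None of the 8 chaperone genes tested (HSPE1 passed the filter here) passed in edgeR, against 3.87% of 21521 genes, 0.762% with the higher and 3.1% with the lower value in U2OS-AsiSI. At an unadjusted p under 0.05 there were 4001 genes in all, and among the chaperones DNAJB1 alone (p 0.0415). The differences, U2OS-AsiSI minus U2OS, were 0.17 for DNAJB1 (SE 0.08, adjusted p 0.245), 0.11 for BAG3 (SE 0.06, adjusted p 0.277), 0.16 for HSPA8 (SE 0.08, adjusted p 0.308) and 0.19 for HSPB1 (SE 0.10, adjusted p 0.324). For HSPH1, HSP90AA1 and HSPD1 they were 0.05 (SE 0.07), 0.04 (SE 0.07) and -0.04 (SE 0.07). HSPE1 stood at 0.39 with an SE of 0.63. The calls of HSPA8, DNAJB1 and BAG3 in U2OS-AsiSI and not in U2OS are thus not shown to be a difference between the lines, nor are the lines shown to be alike. With only genes averaging at least 50 reads tested, BAG3 differed by 0.18 (adjusted p 0.0494; between 0.0494 and 0.48 over 20 alternatives). By DESeq2, 0 of the 8 passed.

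The lines were also compared without INTS11 siRNA. Under siCtrl, 4 of the 7 tested chaperone genes were higher in U2OS-AsiSI than in U2OS and HSPH1 was lower, against 34.9% of 19935 genes called, 17.8% higher and 17.2% lower. HSPD1 differed most, by 0.25 (SE 0.05, edgeR adjusted p 7.16e-05), with both counts and CPM apart. HSP90AA1 was higher by 0.21 (SE 0.05, adjusted p 0.00159) and HSPH1 lower (-0.21, SE 0.05, adjusted p 0.00152), each with CPM apart. DNAJB1 was higher by 0.18 (SE 0.06, adjusted p 0.0143) and HSPA8 by 0.17 (SE 0.05, adjusted p 0.0177), and both calls rested on single libraries. DNAJB1 stood at 0.15 (adjusted p 0.0779) without U2OS siCtrl replicate 3, 0.16 (0.0588) without U2OS-AsiSI siCtrl replicate 2 and 0.15 (0.0679) without replicate 3 of that group, over a range of 0.0026 to 0.0779. HSPA8 stood at 0.11 (adjusted p 0.159) without U2OS siCtrl replicate 2 and 0.12 (0.108) without U2OS-AsiSI siCtrl replicate 3, over a range of 0.000375 to 0.159. BAG3 (0.03, adjusted p 0.646) and HSPB1 (-0.07, adjusted p 0.486) did not pass. The siCtrl libraries here are the same ones used in the siRNA comparisons, so these values are not independent of those. The sums of the 10 genes differed by 0.00400 percentage points of all reads (exact permutation p = 0.1, the smallest possible). With library totals alone the median of all tested genes in this comparison was 0.07 on the log2 scale.

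Read density was set beside these changes. How steeply log counts followed log library totals within groups was computed as a slope over 15617 genes averaging at least 50 reads. A slope of 1 means that counts rise in proportion to depth. Among all genes the median slope was 1.09 under 0.01 reads per base (4603 genes), 1.10 between 0.01 and 0.03 (3812 genes) and 1.02 between 0.03 and 0.1 (5694 genes). It was 0.79 between 0.1 and 0.3 (1341 genes) and 0.32 above 0.3 (167 genes). HSPA8 and HSPB1, the densest chaperone genes at 0.329 and 0.323 reads per base, had slopes of 0.37 and 0.39. HSPH1 and BAG3, at 0.0602 and 0.0908, had 1.10 and 1.01.

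HSP90AA1 (0.56), DNAJB1 (0.66) and HSPD1 (0.62) had lower slopes than most genes of their density over the tabulated span. Over the shorter RefSeq unit their reads would average 0.245, 0.288 and 0.228 per base. For a gene with a slope under 1, dividing by depth raises the scaled value of a shallower library. In U2OS-AsiSI the siINTS11 libraries were the shallower ones, and siINTS11 replicate 2, the shallowest of all, had the highest CPM for HSPA8, HSP90AA1, DNAJB1, HSPD1 and, within its group, HSPB1. HSPH1 and BAG3, with slopes near 1, rose in U2OS-AsiSI by 0.33 and 0.15. The part of read density in the fold changes was not tested.

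**Figure D3:**
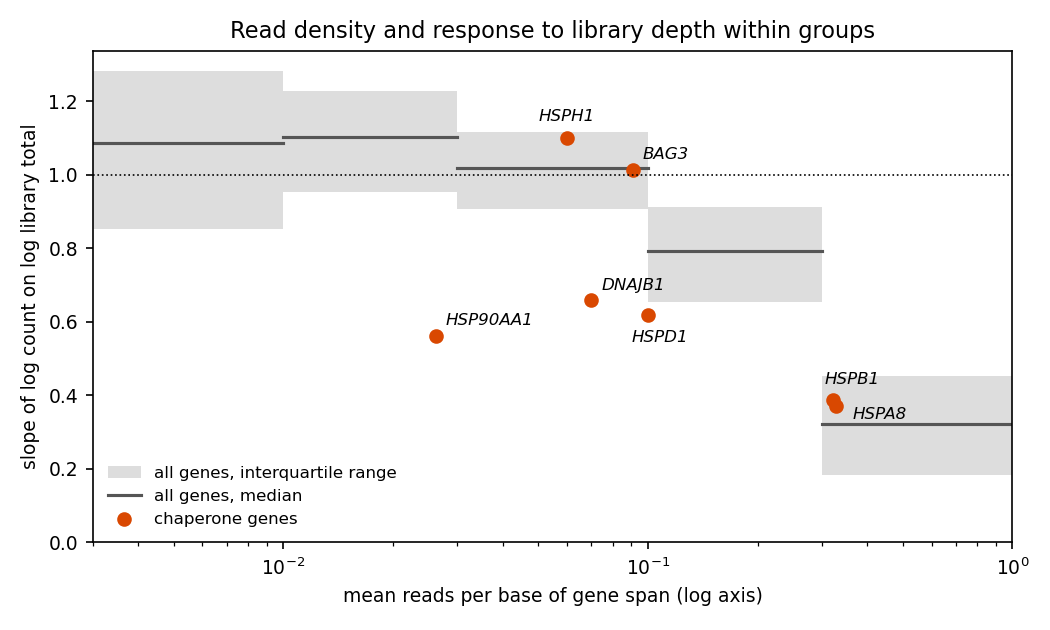
Within-group slope of log count against the log of the library's total (y axis, 12 libraries in 4 groups) against mean reads per base of gene span (log x axis). Points are the 7 chaperone genes, lines and bands the median and interquartile range of all genes in 5 density classes, the lowest class holding every gene under 0.01. HSPA8 and HSPB1 sit in the densest class near 0.4, HSPH1 and BAG3 near the dotted line at 1.

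Other genes of the heat shock and chaperone systems were counted from 6 lists, to be read against the 35.4% of all genes called higher and 32.6% called lower in U2OS-AsiSI and the 34.5% and 32.4% in U2OS. Among the heat shock factors and HSBP1, a negative regulator of HSF1, 0 of 5 rose and 2 fell in U2OS-AsiSI (median -0.21), and 0 rose and 3 fell in U2OS (median -0.44). HSF2, a partner of HSF1, fell from 73.8 ± 4.70 to 47.5 ± 1.93 CPM in U2OS-AsiSI (-0.63, SE 0.05, edgeR adjusted p 4.75e-12) and from 84.5 ± 2.10 to 65.5 ± 2.696 in U2OS (-0.40, SE 0.04, adjusted p 4.88e-11). HSF5, a germline-type factor, fell in both lines (-1.60, SE 0.21, and -1.64, SE 0.18), and SETP3 overlaps it on its strand. HSF4 stood at -0.21 (adjusted p 0.507) and -0.44 (adjusted p 0.14). HSF1 itself, named after its values were seen, stood at 0.09 in U2OS-AsiSI (adjusted p 0.559) and at -0.51 in U2OS (SE 0.15, edgeR adjusted p 0.00271), the latter lost without U2OS siCtrl replicate 1 and with library totals alone (adjusted p between 0.000849 and 0.063 over 14 alternatives). The difference between the lines did not pass (0.57, SE 0.20, adjusted p 0.108). The median of this list was -0.02 and -0.24 with library totals alone.

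Of 18 other HSF1-responsive genes, 15 were tested, since HSPA6 and HSPA1L had 0 reads in every library and HSPA4L at most 4. In U2OS-AsiSI 10 rose and 1 fell (median 0.25), and in U2OS 6 rose and 2 fell (median 0.10). SQSTM1, the autophagy receptor p62, rose from 2.13 ± 0.146 to 4.48 ± 0.396 CPM in U2OS-AsiSI (1.07, SE 0.13, edgeR adjusted p 2.08e-08) and from 1.89 ± 0.511 to 3.57 ± 0.319 in U2OS (0.91, SE 0.15, adjusted p 1.46e-06). DNAJA1, an HSP40 like DNAJB1, rose from 91.5 ± 4.27 to 136.7 ± 9.31 CPM (0.58, SE 0.05, adjusted p 1.33e-11) and from 76.1 ± 1.61 to 119.6 ± 2.45 (0.62, SE 0.04, adjusted p 1.07e-17). DEDD2, a death-effector-domain protein, rose by 0.43 (SE 0.06) and 0.32 (SE 0.05). HSPA6, a strictly inducible HSP70, thus gave no reads in any group. Taken alone, a library with a count of 0 still allows an expected count of up to 3 reads.

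The 15 cochaperones of HSP70 and HSP90 gave 5 higher and 1 lower in U2OS-AsiSI (median 0.10), where 5 of 15 is near the 35.4% of all genes called higher, and 9 higher and 1 lower in U2OS (median 0.14). FKBP4, the immunophilin FKBP52 of steroid receptor complexes, rose by 0.48 (SE 0.05, edgeR adjusted p 1.82e-09) and 0.52 (SE 0.05), and CDC37, the kinase adaptor of HSP90, by 0.28 (SE 0.05) and 0.29 (SE 0.05). FKBP5, the related FKBP51 and the longest gene of its list at 155 kb, fell in both lines (-0.62, SE 0.05, and -0.52, SE 0.04). Of the 8 CCT/TRiC subunits, which form the cytosolic ring chaperonin, 4 rose in U2OS-AsiSI and 5 in U2OS, and none fell. The 4 became 1 without siCtrl replicate 2, with median-of-ratios scaling and with DESeq2, and 0 without siINTS11 replicate 2. CCT3, CCT7 and CCT8 stood at 0.13, 0.13 and 0.17 in U2OS-AsiSI. With library totals alone all 8 were higher in each line, and 13 of 15 cochaperones were.

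Among 12 other mitochondrial chaperones and proteases, 5 rose and 4 fell in U2OS-AsiSI (median 0.09) and 4 rose and 3 fell in U2OS (median 0.03). With library totals alone 7 were higher and 0 lower in U2OS-AsiSI (median 0.28) and 11 higher and 0 lower in U2OS (median 0.23). Without U2OS-AsiSI siINTS11 replicate 2 the 5 became 3, and without U2OS siCtrl replicate 2 or siINTS11 replicate 2 the 3 that fell became 1 or 0. GRPEL1, the exchange factor of mitochondrial HSP70, rose by 0.34 (SE 0.05, edgeR adjusted p 3.07e-06) and 0.63 (SE 0.06, adjusted p 5.04e-13). LONP1, a matrix protease, rose by 0.28 in U2OS-AsiSI and stood at 0.10 in U2OS (adjusted p 0.0694). CLPX, the unfoldase of the ClpP protease, fell by 0.17 in U2OS-AsiSI, a value of 0.02 with library totals alone. In U2OS CLPX changed by -0.11 (edgeR adjusted p 0.0159), a call lost in 3 of 14 alternatives, with the sign changed in 1.

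The endoplasmic reticulum chaperones, known chiefly as targets of the unfolded protein response, had medians below 0. Of 15, 0 rose and 8 fell in U2OS-AsiSI (median -0.23) and 0 rose and 12 fell in U2OS (median -0.32), while with library totals alone 4 were higher and 4 lower in U2OS-AsiSI (median -0.04) and 1 higher and 7 lower in U2OS (median -0.12). SIL1, an exchange factor of the reticulum's HSP70 spread over 346.8 kb, fell from 114.0 ± 5.93 to 60.6 ± 1.47 CPM in U2OS-AsiSI (-0.91, SE 0.05, edgeR adjusted p 1.93e-16) and by 0.81 in U2OS. DNAJC3 (117.8 kb), a cochaperone of the reticulum, fell by 0.67 in U2OS-AsiSI (-0.70 in U2OS), and PDIA6 (54.6 kb), a disulfide isomerase, fell by 0.36 (-0.41 in U2OS). These 3 are long members of the list, whose median span of 18.4 kb is below that of the chaperone set (26.45 kb). By tabulated span, CCT3 (58.9 kb) and HSP90AA1 (58.96 kb) were longer than PDIA6, and they rose in U2OS-AsiSI by 0.13 and 0.33. The CCT3 call was lost in 5 of 14 alternatives. HSP90AA1 spans only 6307 bp from the RefSeq start nearer its coding part. Over the 77 tested genes of the chaperone set and these lists, span and log2 fold change had Spearman correlations of -0.25 in U2OS-AsiSI and -0.13 in U2OS. The part of gene span in the fold changes was not tested.

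**Figure D4:**
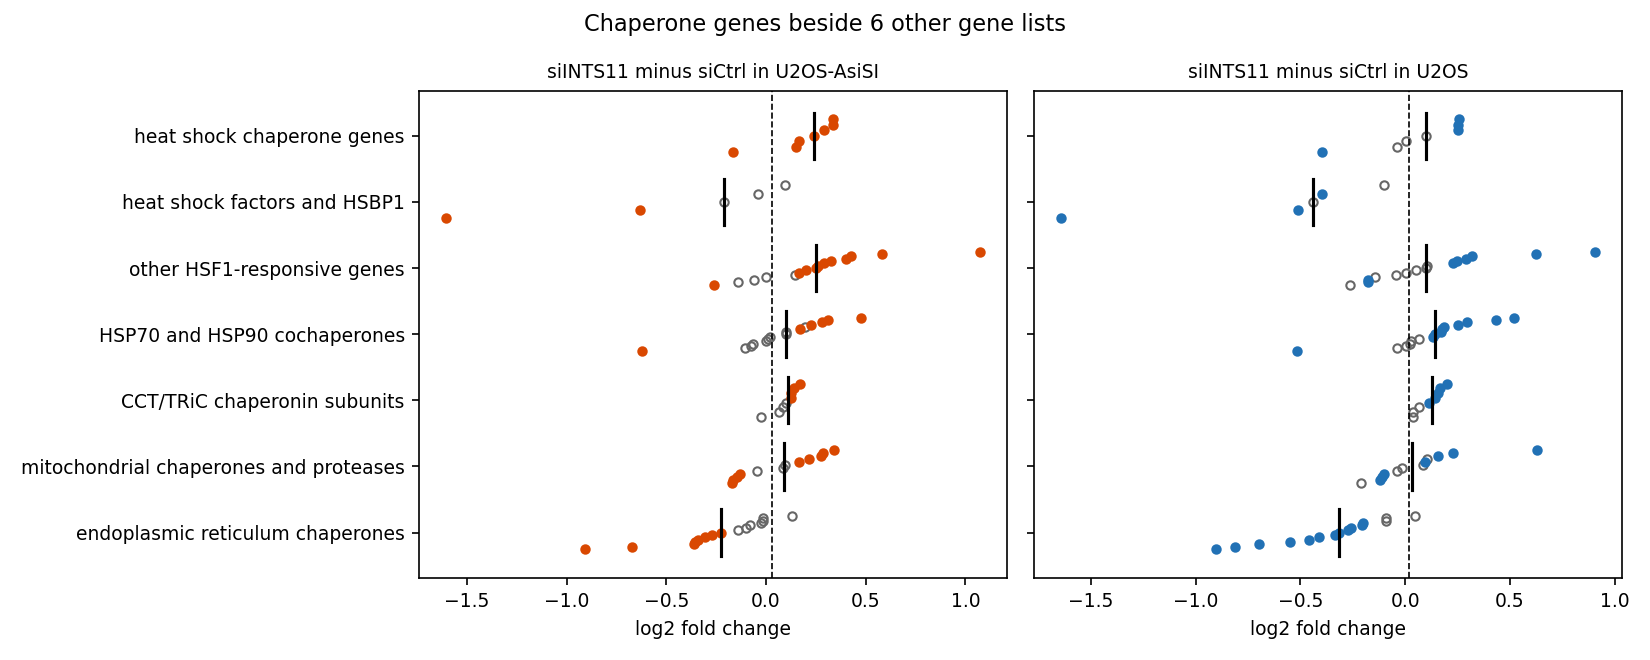
Log2 fold change under siINTS11 (x axis) of each tested gene of the chaperone set and 6 other lists, in U2OS-AsiSI (left) and U2OS (right). Filled points passed an adjusted p of 0.05, bars are list medians and the dashed line is the median of all tested genes. The endoplasmic reticulum chaperones lie mostly below 0, with medians of -0.23 and -0.32, and the chaperone set mostly above.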

How the data were processed

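The deposited tables give whole-number read counts per gene over the gene's span with its length, per the file headers, which have the layout of featureCounts. The submitters' processing notes name Trimmomatic 0.36, STAR 2.7, deepTools, featureCounts and hg38. Settings for strand, overlapping genes and reads with several matches are not given in the sources used here. No count column was unmapped to a sample (0).

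The 4 comparisons were fitted in edgeR 4.0.16 (R 4.3.3) with filterByExpr, TMM scaling and the robust quasi-likelihood test, with Benjamini-Hochberg adjustment over all genes and a threshold of 0.05. The difference between lines was the interaction over all 12 libraries. SE was computed from the log2 fold change and its F statistic. CPM were counts scaled by the TMM-adjusted library total. Depth ran from 20704611 to 38065726 counts. The fits were also run on simulated counts drawn from their own estimates of spread, which cannot show whether those estimates hold here. Alternatives were median-of-ratios scaling, library totals, omitting the count filter, testing only genes averaging 50 reads or more, DESeq2 1.42.0, a replicate block, scaling from genes under 0.1 reads per base, thinning to the smallest total, and leaving out each library. Named were all 10 chaperone genes, INTS11, genes overlapping a chaperone gene on its strand, and up to 3 genes per other list with the smallest adjusted p in U2OS-AsiSI. The members and lists were chosen with earlier results of these data known. Promoter windows came from RefSeq, and shared 50-base words from GENCODE 29 transcripts.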

Additional observations from a re-analysis of the deposited data

Results flagged for a closer look

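For 6 genes beside the chaperone set, the siINTS11 response differed between the lines by the edgeR interaction test (U2OS-AsiSI minus U2OS, log2 scale, adjusted over 21521 genes). Of all these genes 3.87% passed, 3.1% with the lower and 0.762% with the higher value in U2OS-AsiSI. All 6 were lower, the commoner direction among all genes. By list, 1 of 5 heat shock factors and HSBP1, 1 of 15 other HSF1-responsive genes and 2 of 15 cochaperones passed. So did 0 of 8 CCT/TRiC subunits, 1 of 12 mitochondrial genes and 0 of 15 endoplasmic reticulum chaperones. HSPE1-MOB4 differed by -0.60 (adjusted p 0.0071), lost only without U2OS siCtrl replicate 3 among 20 alternatives (adjusted p between 0.00462 and 0.0542). CACYBP, a calcyclin-binding protein named for this test after its values were seen, differed by -0.34 (adjusted p 0.00945; between 0.00739 and 0.0624), lost in 2 alternatives, without U2OS siCtrl replicate 3 and without U2OS-AsiSI siINTS11 replicate 3. GRPEL1 differed by -0.33 (adjusted p 0.0122; between 0.00853 and 0.108), lost in 3 alternatives, including without U2OS siCtrl replicate 3 and without U2OS siINTS11 replicate 1. The HSP70 cochaperones BAG1 and BAG2, also named after their values were seen, differed by -0.27 (adjusted p 0.0123; between 0.0157 and 0.118) and -0.25 (adjusted p 0.0151; between 0.016 and 0.133), each lost in 7 alternatives. HSF2 differed by -0.27 (adjusted p 0.0215; between 0.0128 and 0.13), lost in 11 of 20. No value changed sign in these alternatives. The causes were not tested.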

How the results depend on the processing

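HSPH1, HSP90AA1 and HSPD1 kept sign and call for siINTS11 in both lines under all 14 alternatives. Leaving out single libraries gave 6 called chaperone genes in U2OS-AsiSI in every case, 4 to 5 in U2OS, 0 between the lines and 3 to 5 under siCtrl, the 3 without U2OS-AsiSI siCtrl replicate 3. With library totals alone 7 were called in U2OS, and among genes averaging at least 50 reads, 1 (BAG3) differed between the lines. All-gene counts without single libraries ran from 12705 to 13777 in U2OS-AsiSI, from 12884 to 13916 in U2OS and from 5341 to 7016 under siCtrl. The 832 genes that differed between the lines became 447 with median-of-ratios scaling, 423 with DESeq2, 531 with thinning and 286 to 946 without single libraries, the lowest without U2OS siINTS11 replicate 3. Summed shares differed by 0.0115 to 0.0137, 0.00803 to 0.00948 and 0.00326 to 0.00495 percentage points.

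Signs changed for values near 0. HSPB1 in U2OS-AsiSI was 0.023 with library totals. Under siCtrl HSPB1 ran from -0.138 to 0.027 without single libraries, positive without U2OS siCtrl replicate 1. BAG3 in U2OS was -0.0119 with median-of-ratios scaling and with DESeq2, -0.0105 with thinning, -0.00039 with no count filter and from -0.0158 to 0.0246 without single libraries, negative without siCtrl or siINTS11 replicate 3. DNAJB1 in U2OS was 0.16 with library totals, 0.0016 in genes averaging at least 50 reads and from -0.067 to 0.0035 without single libraries, positive without siCtrl replicate 1. Between the lines HSPD1 was 0.0053 with no count filter, 0.0258 in genes averaging at least 50 reads and from -0.0868 to 0.0221 without single libraries, positive without U2OS siCtrl replicate 3. HSPH1 ran from -0.0014 to 0.115, negative without U2OS-AsiSI siINTS11 replicate 1. The causes were not tested.

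With the replicate number as a block, called chaperone genes stayed at 7, 4, 0 and 5 in number, and the count between the lines fell to 531 genes under the replicate block. Correlations of deviations between same-numbered libraries ran from -0.108 to 0.137 over 12 such pairs within a line or siRNA, so the numbers are not taken as pairs. With library totals, the share of called genes that were higher moved from 19.7% to 29.5% between the lines and from 50.9% to 67.4% under siCtrl. HSPA1A and HSPA1B had too few counted reads to pass the count filter in any comparison, and HSPE1 passed it only in that between the lines.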
